A study of Drosophila melanogaster with 54 samples.

Results

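The 32 mRNAs described here had low ribosome occupancy in laid Drosophila melanogaster eggs and in laid eggs lacking PAN GU (PNG) kinase activity, against mature oocytes. They were chosen on those values. The measure was translational efficiency, defined as log2(footprint RPKM + 1) minus log2(RNA RPKM + 1), where RPKM is reads scaled to coding length and to library depth. Of 5842 transcripts in the footprint table, 5741 had at least 5 RPKM of RNA in all 6 RNA libraries. An efficiency at least 1.5 log2 units lower in eggs than in oocytes, both without and with cycloheximide, was found for 581 of these (10.1%). The same fall in png eggs was found for 349 (6.08%), and both falls for 59 (1.03%). In 35 (0.610%) the png eggs also lay within 1 log2 unit of the eggs in both states, and the removal of osk, me31B and the ribosomal protein transcript RpLP0 left the 32. By contrast, 476 transcripts (8.29%) had the fall in eggs with png eggs more than 1 log2 unit higher than eggs. All these figures describe the selection, carry no test and rest on 1 library per stage and state.

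PNG is a serine/threonine kinase that works with the proteins PLU and GNU at egg activation, the change by which a mature oocyte resumes meiosis and becomes an egg, in flies without any need of fertilization. Since the genome is transcriptionally silent at this stage, the egg alters its protein synthesis by loading stored maternal mRNAs onto ribosomes or releasing them. PNG is known as a regulator of the translation of many maternal mRNAs, among them cyclin B. Ribosome footprinting counts the mRNA pieces that ribosomes protect from nuclease, whereas a sucrose gradient sorts whole mRNAs by the number of ribosomes they carry.

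The series held 54 libraries, of which 12 were the footprint and matched RNA libraries, 36 were fractions of 6 sucrose gradients and 6 were unfractionated inputs. The png eggs were laid by png1058/png1058 females and were measured in the footprint series only. Eggs came from OregonR virgin females mated to spermless twine (HB5) males, were collected over 2 h and dechorionated, and are therefore activated but unfertilized. Oocytes were hand-selected at the mature stage from collagenase-treated ovaries of fattened OregonR females aged 4 days. Gradients were run for eggs (2), oocytes (2), puromycin-treated egg lysate (1) and puromycin-treated oocyte lysate (1). Puromycin, which releases nascent chains from elongating ribosomes, was added to lysates made in another buffer, run on gradients of another magnesium concentration and given no cycloheximide; the drug and these buffers cannot be told apart. Nothing in the labels says whether the 2 gradients of a stage came from separate collections, and p-values measure only the spread between them.

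Whole reads behind the footprint table were inferred, to 3 digits, at 9970000 and 10400000 in the png egg footprint libraries without and with cycloheximide, 8770000 and 9860000 in eggs, and 4750000 and 3300000 in oocytes. The depth of the gradient and input libraries is unknown. The labels were checked against cell markers: 25 of 26 germline markers were detected in every input. Follicle cell markers, 21 genes for eggshell proteins and related products, summed to 74.1 and 59.2 RPKM in egg inputs, against 28616 and 23447 RPKM in oocyte inputs. These somatic cells surround the oocyte and were thus present in each oocyte preparation. In the footprint series 2 of the 21 markers were detected. Their footprints summed to 24.8 and 41.6 RPKM in eggs, against 26004 and 75040 RPKM in oocytes, without and with cycloheximide. Their RNA summed to 8.91 and 7.89 RPKM in eggs, near the floor of the selection. None of the 32 mRNAs is on the follicle list, but few of its genes could have entered. The part of follicle cells in the results was not tested. The input labelled egg puromycin held 28736 RPKM of these markers and went against its label, but the egg puromycin gradient held 364 normalized RPKM over its 6 fractions, against 497 and 1765 in the egg gradients and at least 299860 in each oocyte gradient. Inputs of puromycin-treated lysates entered no main comparison.

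The strongest falls belonged to oys, a membrane-bound O-acyltransferase that remodels phospholipids, and nbs, the fly Nibrin that acts with Mre11 and Rad50 at broken DNA. Footprints on oys stood at 15.3 RPKM in png eggs and 11.2 RPKM in eggs, against 125 RPKM in oocytes without cycloheximide, and at 13.9 RPKM, 5.69 RPKM and 92.8 RPKM in the same order with it. The RNA of oys was 108 RPKM in png eggs and 93.6 RPKM in eggs, against 90.0 RPKM in oocytes without cycloheximide. Footprints were therefore low in both kinds of egg while RNA of the same series was not, and png eggs lay between eggs and oocytes in footprints. Footprints on nbs were 10.6 RPKM in png eggs and 4.51 RPKM in eggs, against 81.0 RPKM in oocytes without cycloheximide, and 10.5, 3.63 and 45.8 RPKM with it. Its efficiency was −2.40 in png eggs and −3.19 in eggs, against 0.80 in oocytes without cycloheximide.

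Among DNA repair and chromatin factors the members were nbs, CtIP, known from mammals as an end-resection factor, and E(z), the histone H3 lysine methyltransferase of Polycomb repressive complex 2. Footprints on E(z) were 17.6 RPKM in png eggs and 11.7 RPKM in eggs, against 71.9 RPKM in oocytes without cycloheximide, and 16.2, 6.95 and 43.4 RPKM with it. For CtIP the efficiency was −1.88 in png eggs and −1.70 in eggs, against 0.16 in oocytes, and −1.80, −1.90 and −0.15 with cycloheximide. The Mre11 partner transcript rad50 missed the selection on a single value, since its png eggs stood 1.12 log2 units above eggs without cycloheximide and 0.76 above with it.

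Regulators of mRNA were represented by Upf1, the helicase of nonsense-mediated decay, and Imp, an RNA-binding protein that binds osk and grk mRNA in the fly ovary. Upf1 had 13.2 footprint RPKM in png eggs and 10.8 in eggs, against 47.6 in oocytes without cycloheximide, and 11.3, 7.81 and 38.3 with it. Imp, at 61.6 RPKM in png eggs and 60.5 RPKM in eggs against 214 RPKM in oocytes without cycloheximide, was among the members with the most footprints in oocytes. In efficiency Imp read −0.32 in png eggs and −0.63 in eggs, against 1.40 in oocytes, so it stayed well above oys and nbs in every stage. The transcript of cu, the fly relative of Nocturnin, was also a member.

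Metabolic enzymes and carriers among the members came from several pathways. Gfat2 performs the entry step of hexosamine synthesis, Mpi interconverts mannose and fructose phosphates, Hibch acts in valine breakdown, AMPdeam deaminates AMP, DPCoAC carries dephospho-coenzyme A into mitochondria and ACC, acetyl-CoA carboxylase, commits acetyl-CoA to fatty acid synthesis. The efficiency of Gfat2 was −2.25 in png eggs and −2.32 in eggs, against 0.39 in oocytes without cycloheximide, and −2.65, −2.39 and 0.58 with it. Hibch was already below 0 in oocytes, with −3.16 in png eggs and −3.98 in eggs against −0.83 in oocytes without cycloheximide. AMPdeam lay at the other end, with 0.04 in png eggs and −0.44 in eggs against 2.00 in oocytes. ACC differed from most members in its RNA, which was 53.7 RPKM in png eggs and 33.7 RPKM in eggs, against 21.3 RPKM in oocytes without cycloheximide, and 54.6, 25.7 and 24.6 RPKM with it. Its footprints without cycloheximide were 8.94 RPKM in png eggs and 3.33 RPKM in eggs, against 11.9 RPKM in oocytes. The low efficiency of ACC in png eggs thus came with a higher RNA level and footprints only moderately below those of oocytes.

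Membrane, folding and turnover proteins made up the remaining named members. Vha100-2 is a subunit of the proton-pumping vacuolar ATPase, Ero1L an oxidoreductase of the endoplasmic reticulum, Usp8 a deubiquitinase, Ide a metalloprotease known for degrading insulin, Nrx-IV a septate junction protein and Hsp110 a nucleotide exchange factor for Hsp70. Hsp110 had the most footprints of all members, with 203 RPKM in png eggs and 153 RPKM in eggs, against 584 RPKM in oocytes without cycloheximide, and 179, 144 and 522 RPKM with it. At 199.8 RPKM in png eggs and 194 RPKM in eggs, against 195 RPKM in oocytes, its RNA was nearly level. Vha100-2 had 24.0 RPKM of footprints in png eggs and 11.3 RPKM in eggs, against 146 RPKM in oocytes without cycloheximide. Nrx-IV differed in order, since png eggs were lower than eggs: its footprints were 6.09 RPKM in png eggs and 10.1 RPKM in eggs, against 37.6 RPKM in oocytes, and 5.94, 8.42 and 38.1 RPKM with cycloheximide. NiPp1, a nuclear inhibitor of protein phosphatase 1, and Rilpl, a relative of the Rab-binding RILP proteins, were members too, as were fsd, Pino, CG13766, CG33995, CG1640, CG15073, CG4658, CG1792, CG2182, CG6607 and NM_001103483, a transcript with no matched gene name. NM_001103483 had the lowest efficiency of all members in png eggs, −4.75 there and −4.52 in eggs, against −2.26 in oocytes without cycloheximide.

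**Figure D1:**
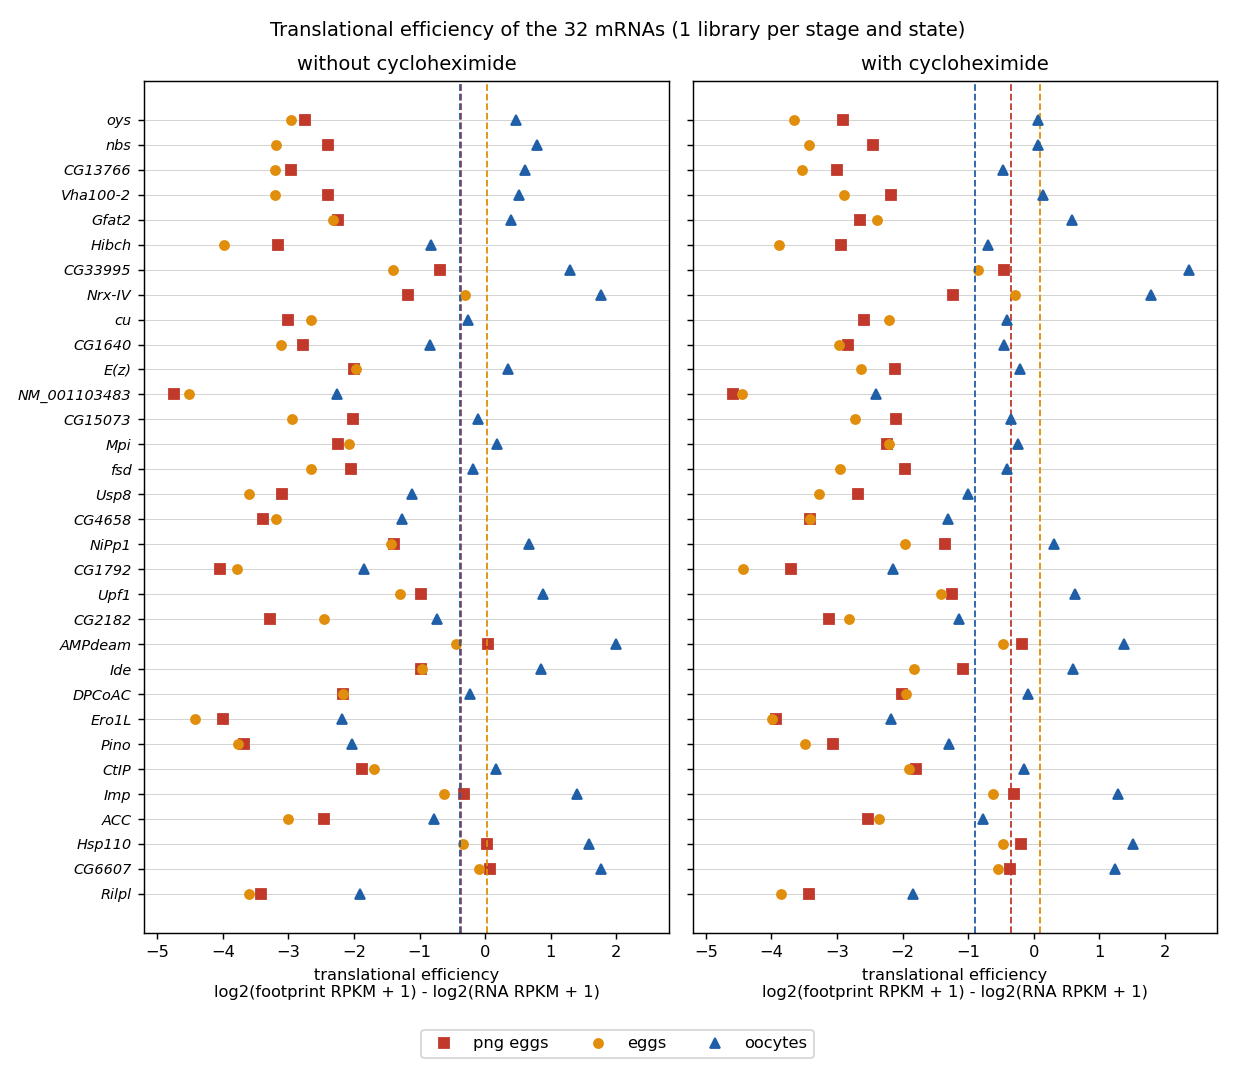
Translational efficiency, log2(footprint RPKM + 1) minus log2(RNA RPKM + 1), of the 32 mRNAs in png eggs, eggs and oocytes, without cycloheximide (left) and with it (right). Each point is 1 library; dashed lines are medians of 5741 transcripts, where the png egg line (−0.36) and the oocyte line (−0.39) nearly coincide on the left. Every oocyte point lies above both egg points of its mRNA, as the selection required.

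Over the 32, efficiency had a median of −2.32 in png eggs and −2.65 in eggs, against 0.17 in oocytes without cycloheximide, and −2.35, −2.68 and −0.23 with it. The medians over all 5741 transcripts were −0.36 in png eggs, 0.03 in eggs and −0.39 in oocytes without cycloheximide, and −0.35, 0.09 and −0.89 with it. In oocytes 21 of 32 members without cycloheximide and 24 of 32 with it lay above the median of all transcripts. In png eggs 4 of 32 without cycloheximide and 3 of 32 with it lay above that median, and in eggs 0 of 32 in either state. The selection favours these placements by itself, since it required efficiency to be lower in both kinds of egg than in oocytes. The linear fall in eggs ran from 3.25-fold to 15.8-fold with a median of 4.78-fold without cycloheximide, and in png eggs from 2.85-fold to 11.8-fold with a median of 4.04-fold. These folds are on the scale of RPKM + 1, which understates the change of low values.

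Within the selected window of 1 log2 unit, png eggs read higher than eggs for 22 of 32 members without cycloheximide and 24 of 32 with it. The median difference was 0.20 and 0.31, beside −0.08 and −0.12 over all transcripts. The selection leans this way by itself. Of the transcripts with the fall in eggs, 476 lay above the window in both states and 1 below it. The window does not show that the genotypes were alike, since no replicate of png eggs was measured. The widest differences inside it were 0.98 for fsd and nbs and 0.95 for Hibch, all with png eggs higher, while Nrx-IV read −0.87 and −0.94. At the other threshold the members nearest to it were Rilpl, AMPdeam and Hsp110, whose smallest fall among the 4 contrasts was −1.51, −1.55 and −1.56. Just outside lay slgA at −1.49, CG9902 at −1.47 and CG6984 at −1.47. The group is therefore a slice of a continuous range, and another 24 transcripts had both falls but png eggs outside the window.

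RNA of the footprint series changed little in eggs by comparison. The log2 RNA change of the 32 had a median of 0.10 in eggs against oocytes without cycloheximide and 0.05 with it, where all transcripts had 0.06 and 0.02. In png eggs against oocytes it was 0.36 and 0.39, where all transcripts had 0.11 and 0.10. RNA was higher in png eggs than in oocytes for 31 of 32 members without cycloheximide and for 32 of 32 with it. The medians of all transcripts, 0.11 and 0.10, were positive too, so most transcripts went the same way. The share of all transcripts with higher RNA was not counted, so the member counts have no background beside them. RNA was part of the selected ratio, so these member counts are description. The RNA libraries were poly(A)-selected, and in them a change of mRNA level and a change of poly(A) tail length cannot be told apart.

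Counting error differed widely among the members. Inferred footprint reads, available for 31 of 32, ranged from 19 to 4788 in png eggs and from 8 to 3177 in eggs, against 37 to 6569 in oocytes without cycloheximide. Fewer than 20 reads lay behind 7 members in eggs in each state. CG13766, for instance, had 22 reads in png eggs (95% exact Poisson interval 13.8 to 33.3) and 10 in eggs (4.80 to 18.4), against 126 in oocytes (105 to 150) without cycloheximide. The selection used these same reads, and they are not scaled to library depth, so the intervals show precision and test no difference. For fsd the egg values rest on 8 and 6 reads. These intervals cover counting error only.

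The sucrose gradients, which the selection did not use, held eggs and oocytes in 2 gradients each but no png eggs. The polysomal share of an mRNA is its normalized RPKM in the medium and heavy polysome fractions as a percent of all 6 fractions. For oys the share was 6.90% and 9.41% in eggs, against 36.7% in both oocyte gradients. For nbs it was 10.1% and 12.3% in eggs, against 41.6% and 37.3% in oocytes. Hsp110 had 11.1% and 9.98% in eggs, against 45.2% and 43.4% in oocytes. In each of these the eggs stood far below the oocytes without overlap, though some signal stayed with polysomes in eggs.

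Upf1 and Imp, at the top of the range in oocytes, had 12.2% and 14.8% in eggs against 45.6% and 44.4% in oocytes, and 14.3% and 11.9% in eggs against 49.1% and 44.8% in oocytes. E(z) stood at 11.6% and 12.6% in eggs, against 35.4% and 39.3% in oocytes. ACC had 9.17% and 9.24% in eggs, against 38.5% and 37.2% in oocytes. The highest egg share was that of AMPdeam, with 21.9% and 15.8% in eggs against 47.7% and 48.8% in oocytes. CtIP was the closest to its oocyte level, with 14.9% and 19.3% in eggs against 35.4% and 32.7% in oocytes. All 22 members listed in both egg and both oocyte gradients had lower shares in both egg gradients than in both oocyte gradients, beside 59.2% of the 5374 genes listed there. Across them the egg shares spanned 5.78% to 21.9% and the oocyte shares 22.6% to 49.1%.

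**Figure D2:**
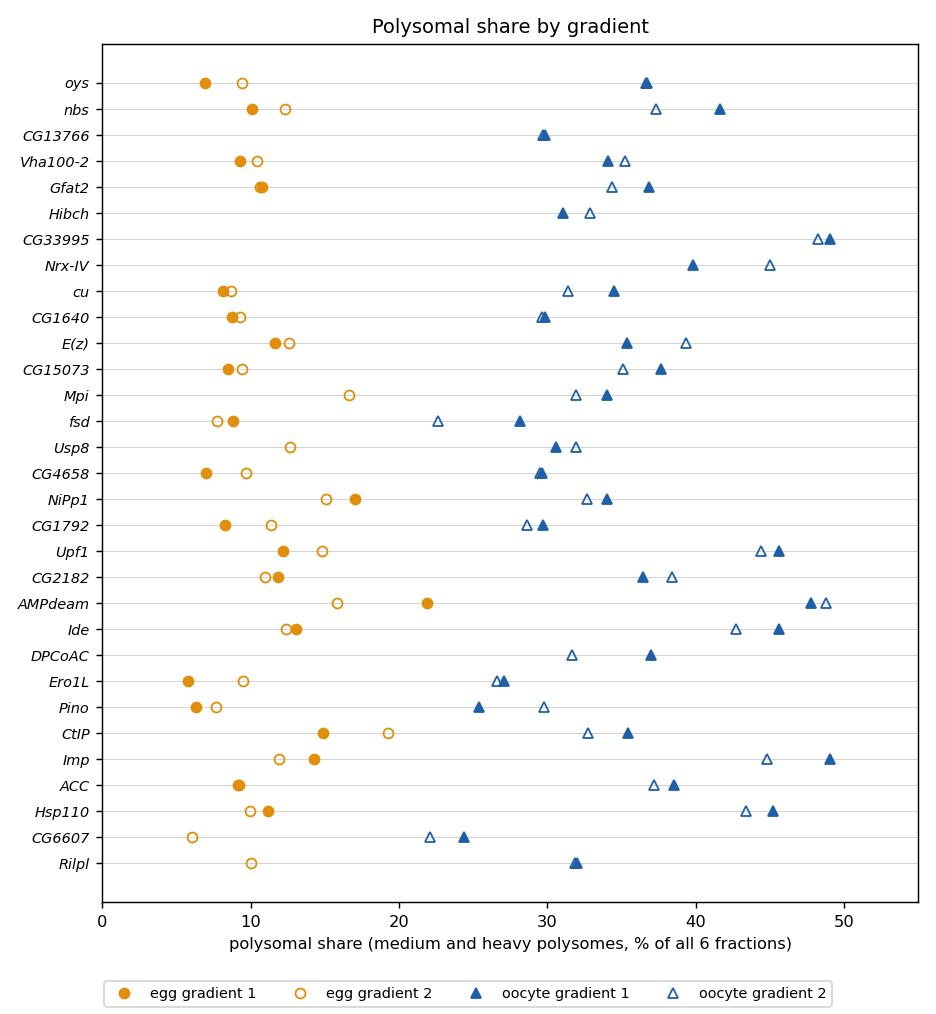
Polysomal share (medium plus heavy polysomes, percent of all 6 fractions) of the 31 mRNAs with an entry, in 2 egg gradients (circles) and 2 oocyte gradients (triangles). Each point is 1 gradient, mRNAs are ordered by their fall in efficiency, and a missing circle means no entry in that egg table. Egg points lie between 5.78% and 21.9% for the 22 mRNAs present in all 4, left of every oocyte point.

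The log2 odds of polysomal RNA, log2 of (medium and heavy + 1) over (the other fractions + 1), were compared with limma over all 5088 genes listed in all 6 gradients, adjusted by Benjamini-Hochberg, and called at an adjusted p under 0.05. Of the 32 members 19 were in this set, and 19 of 19 were lower in eggs than in oocytes, beside 51.0% of all genes lower and 18.2% higher. The median change was −2.21 for the members and −0.60 for all genes. Hsp110 changed by −2.74 ± 0.16 (SE, 2 gradients each, adjusted p = 0.000115), oys by −2.68 ± 0.21 (adjusted p = 0.000127), ACC by −2.53 ± 0.15 and Imp by −2.53 ± 0.18. The smallest changes were those of CtIP at −1.31 ± 0.20 (adjusted p = 0.00156) and NiPp1 at −1.38 ± 0.16. Members entered this test only if their heavy fraction reached 4 RPKM in every gradient, which depends on abundance as well as on loading; cu, CG15073 and fsd were missing from the egg puromycin gradient alone.

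The share depends on how the fractions are weighed against each other. With fraction totals made equal, 17 of 19 members were lower and CtIP (−0.43) and NiPp1 (−0.35) lost their calls. This scaling moved the median of all genes to 0.07, a shift of over 0.1. Relative to the median of all genes the members stood at −1.61 with the deposited values and at −1.55 with equal fraction totals. The 399 tested genes of the group with png eggs more than 1 log2 unit above eggs had a median change of −2.36, and all 399 were lower, so these gradients placed both groups low.

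**Figure D3:**
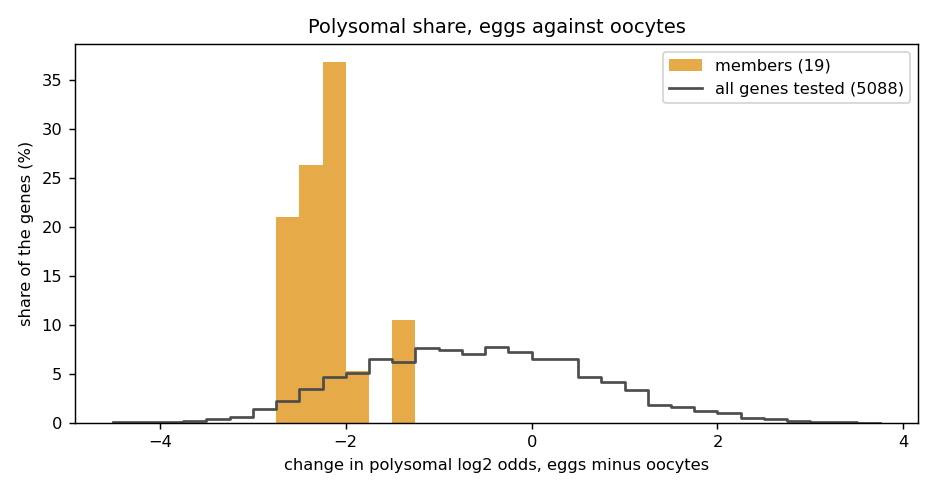
Distribution of the change in polysomal log2 odds, eggs minus oocytes, for the 19 members and for all 5088 genes tested. The members lie between −2.74 and −1.31, in the left part of the distribution of all genes, whose median is −0.60.

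Entry in the gradient tables needed a heavy-fraction value of at least 4 RPKM, and members dropped out of the egg tables. Of 31 members in both oocyte gradients, 5 were in neither egg gradient (CG13766, Hibch, CG33995, Nrx-IV and DPCoAC), beside 7.61% of the 6016 genes in both oocyte gradients. Their heavy values in oocytes ran from 4.64 to 27.6 RPKM, with Hibch the highest and CG33995 and DPCoAC close to the limit. A further 4 (Usp8, Mpi, CG6607 and Rilpl) were in a single egg gradient, beside 3.06% of genes. Exons of CG33995, DPCoAC, Hibch, CG4658 and CG13766 share 100%, 58.6%, 42.6%, 30.6% and 28.9% of their bases with another gene in the BDGP6 annotation. The sources do not say whether counting used strand, and their values are uncertain. CG33995 had 2.41 to 3.79 RPKM in egg and oocyte inputs but 68.1 to 109 RPKM in the RNA of the footprint series.

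In eggs the members' RNA lay at the light end of the gradient. Over the 19, the median share in the free ribonucleoprotein (RNP) fraction was 32.3% and 16.7% in eggs, against 3.77% and 2.28% in oocytes. The 40S fraction held 26.5% and 28.4% in eggs, against 12.5% and 7.00% in oocytes. The fraction with the 60S subunit and single ribosomes was about level, at 21.8% and 29.5% in eggs against 22.3% and 30.9% in oocytes. Over all 5088 genes this fraction was lower in eggs, at 16.3% and 21.3% against 22.3% and 30.4% in oocytes. In the group with png eggs more than 1 log2 unit above eggs it was about level too. There it held 19.95% and 27.9% in eggs against 19.6% and 27.8% in oocytes, over the genes listed in each gradient. The RNP median of all genes was higher in eggs too, at 18.3% and 12.2% against 4.77% and 2.97% in oocytes. In the first egg gradient 13 of 19 members were fullest in the RNP fraction and 4 in 40S. In the second 12 were fullest in 40S and 1 in RNP. The other 6 were fullest in the 60S and 80S fraction there. Polysomal medians were low in both egg gradients, and the second had a lower RNP share and a higher share in the 60S and 80S fraction than the first.

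**Figure D4:**
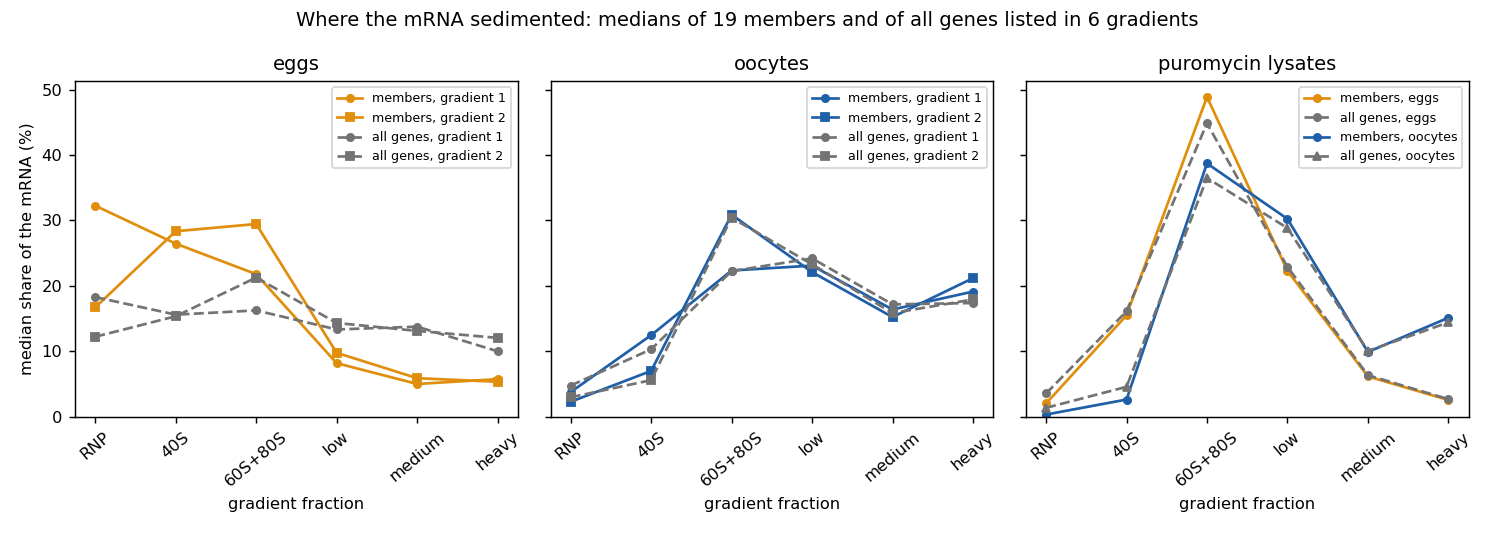
Median share (percent) of the 19 members in each of the 6 gradient fractions, for the egg, oocyte and puromycin gradients; each solid line is 1 gradient and dashed lines are the medians of the 5088 genes. In eggs the medians peak in RNP in the first gradient and in the 60S and 80S fraction in the second and reach 5.0% to 5.9% in medium and heavy polysomes, whereas in oocytes the heavy fraction holds 19.1% and 21.2%.

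The RNP log2 odds were higher in eggs than in oocytes for 18 of 19 members (limma, Benjamini-Hochberg), beside 79.3% of all genes higher and 0.550% lower. The median was 2.98 for the members and 2.12 for all genes. In the group with png eggs more than 1 log2 unit above eggs it was 3.16, with 394 of 399 tested genes higher. Hsp110, with 30.8% and 12.3% in eggs against 2.21% and 0.992% in oocytes, rose by 3.95 ± 0.78. Upf1 rose by 1.99 ± 0.77 (adjusted p = 0.0135) with shares of 5.35% and 3.76% in eggs against 0.392% and 0.261% in oocytes. ACC was the exception at −0.60 ± 0.78 (adjusted p = 0.467), with 1.36% and 0.633% in eggs against 0.402% and 0.589% in oocytes. In eggs ACC lay instead in the fraction with the 60S subunit and single ribosomes, at 59.6% and 68.6% against 28.8% and 32.4% in oocytes. The count of higher members was 11 with equal fraction totals and 7, with 1 lower, when gradients were centred. Leaving out the second oocyte gradient gave 13.

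Coding length went with this split. Across the 22 members in both egg and both oocyte gradients, Spearman's correlation of coding length with RNP share was −0.71 and −0.78 in eggs, against −0.84 and −0.82 in oocytes. Over 5275 genes it was −0.27 and −0.61 in eggs, against −0.67 and −0.69 in oocytes. These are descriptions across genes that share libraries.

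Puromycin asked which of the fast-sedimenting RNA was held by elongating ribosomes. Each puromycin condition is 1 gradient, assumed to vary like the replicated ones, and results are those of the limma model with Benjamini-Hochberg adjustment. In oocytes the polysomal share of AMPdeam was 18.2% with puromycin, against 47.7% and 48.8% without (−2.06 ± 0.27, adjusted p = 0.00196). Upf1 had 21.7% with puromycin, against 45.6% and 44.4% without (−1.56 ± 0.21, adjusted p = 0.0022). Hsp110 had 21.5% with puromycin, against 45.2% and 43.4% without (−1.54 ± 0.20, adjusted p = 0.00191). In each of these the treated value lay well under both untreated oocyte values. At the other end Pino read 32.6% with puromycin, against 25.4% and 29.8% without (0.34 ± 0.25, adjusted p = 0.299). CG1792 read 31.7% with puromycin, against 29.7% and 28.6% without (0.17 ± 0.26, adjusted p = 0.617). CG4658 and Ero1L also failed the test, at −0.16 and 0.24.

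In oocytes 10 of 19 members were lower with puromycin, beside 49.5% of all genes, and 0 were higher, beside 0.550%. At an unadjusted p under 0.05, 12 were lower, beside 55.7%, and 0 higher, beside 1.10%. The share of members called is close to that of all genes, as is the median, −0.79 for the members and −0.70 for all genes. Leaving out either oocyte gradient gave 6 lower members, and leaving out either egg gradient gave 13. With equal fraction totals, 0 were lower and 11 higher, 9 of the 10 changed sign, and the all-gene median moved to 0.76. Relative to that median the members stood at −0.09 with the deposited values and at 0.22 under that scaling.

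In eggs the shares were already low, and puromycin lowered 5 of 19 members, beside 80.1% of all genes. These were AMPdeam (−1.61 ± 0.27, adjusted p = 0.00145), NiPp1 (−1.29 ± 0.20), CtIP (−1.18 ± 0.25), Gfat2 (−0.56 ± 0.20) and Upf1 (−0.55 ± 0.21, adjusted p = 0.0499). AMPdeam had 6.97% with puromycin, against 21.9% and 15.8% without, and CtIP 8.37% against 14.9% and 19.3%. ACC was the 1 member that rose, beside 1.00% of all genes, with 14.7% against 9.17% and 9.24% (0.76 ± 0.19, adjusted p = 0.00831). The median change was −0.35 for the members and −1.83 for all genes. In the group with png eggs more than 1 log2 unit above eggs it was −0.41, with 167 of 399 tested genes lower and 12 higher. The small change was therefore not particular to the members. With equal fraction totals 0 members were lower and 16 higher. All 5 that had been lower changed sign, from 0.10 for NiPp1 to 1.74 for Upf1, and the all-gene median was 0.03. With puromycin the median polysomal share in eggs was 8.99% for the 19 members and 9.03% for all 5088 genes, close to each other. Relative to the all-gene median the members stood 1.49 higher with the deposited values and 1.60 higher under that scaling.

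The difference of the puromycin effect between eggs and oocytes was tested in the same model. It was higher for 4 of 19 members, beside 5.84% of all genes, and lower for 0, beside 49.9%. At an unadjusted p under 0.05 it was higher for 6, beside 7.41% of all genes, and lower for 1, beside 54.2%. These 4 were Hsp110 (1.19 ± 0.28, adjusted p = 0.0125), Ide (1.06 ± 0.27, adjusted p = 0.0174), ACC (1.04 ± 0.26, adjusted p = 0.0159) and Upf1 (1.01 ± 0.30, adjusted p = 0.0297). A positive value means that the share fell less with puromycin in eggs than in oocytes, or rose in eggs. The contrast also subtracts the untreated change from oocytes to eggs, so an mRNA with a low egg share tends to read high. All 19 members had fallen in that change, so these counts are no separate support. In the group with png eggs more than 1 log2 unit above eggs, 173 of 399 tested genes were higher and 2 lower. Among the 19 members, the calls depended on which untreated gradients were kept. Their median difference was 0.50 with all gradients. It was 0.49 and 0.44 without the first and second oocyte gradient, and 0.56 and 0.47 without the first and second egg gradient.

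**Figure D5:**
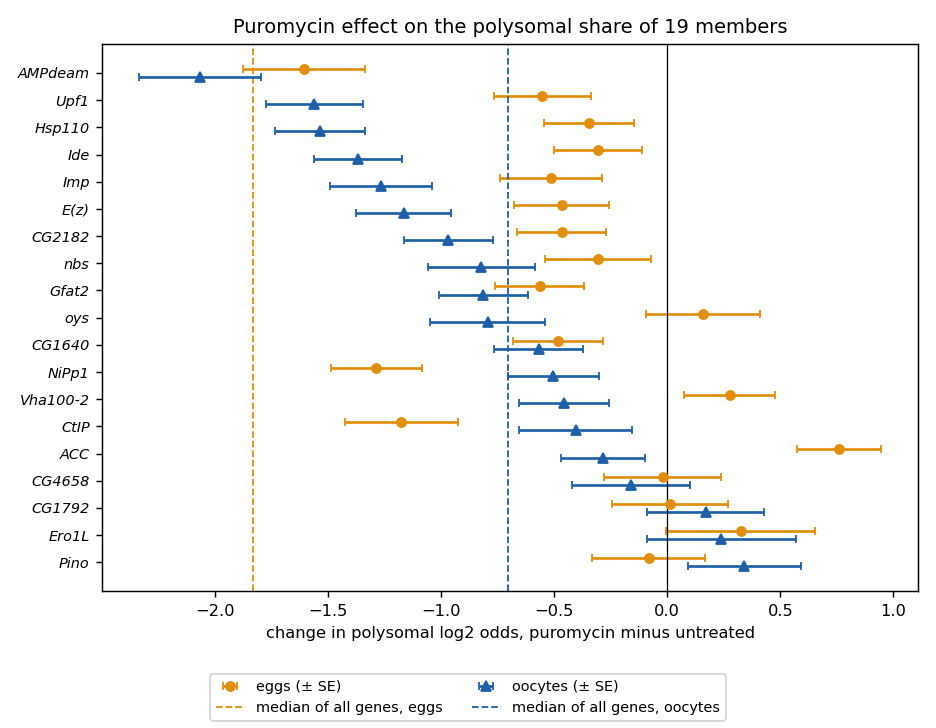
Change in polysomal log2 odds, puromycin minus untreated, for the 19 members in eggs (circles) and oocytes (triangles), with standard errors from the limma model. Dashed lines are medians over 5088 genes, −1.83 in eggs and −0.70 in oocytes; with equal fraction totals these move to 0.03 and 0.76, and 14 of the 19 members in eggs and 15 in oocytes change sign. AMPdeam is lowest in both stages, and all egg points lie right of the egg median.

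Unfractionated RNA gave an independent view of mRNA level. Of 31 members tested, 1 was higher in eggs than in oocytes, beside 0.423% of 6622 genes higher, and 0 were lower, beside 3.05% (limma on log2(RPKM + 1), Benjamini-Hochberg). At an unadjusted p under 0.05, 4 members were lower, beside 9.20% of all genes, and 2 higher, beside 4.98%. The higher one was ACC, with 25.96 and 22.7 RPKM in eggs against 11.6 and 7.60 RPKM in oocytes (1.28 ± 0.30, adjusted p = 0.0413). Pino had 68.6 and 86.5 RPKM in eggs, against 45.2 and 32.8 RPKM in oocytes (0.98 ± 0.27, adjusted p = 0.108). Hibch had 8.03 and 16.9 RPKM in eggs, against 30.6 and 25.6 RPKM in oocytes (−1.19 ± 0.35, adjusted p = 0.127). In 20 of 31 members both egg inputs lay below both oocyte inputs, beside 28.7% of all genes, and in 2 both lay above, beside 19.5%. The median change was −0.36 for the members and −0.09 for all genes. In direction this differed from the RNA of the footprint series, where the members' median was 0.10 without cycloheximide and 0.05 with it. The cause was not tested. For oys the inputs were 55.7 and 56.9 RPKM in eggs, against 80.9 and 80.2 RPKM in oocytes (−0.51 ± 0.24, adjusted p = 0.376). The call of ACC was lost when either oocyte input was left out, and leaving out the second egg input called 7 members lower, beside 17.8% of all genes.

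Several members belong to gene lists of known function, and the genes of those lists moved in more than 1 direction in the polysomal comparison. The counts include the members, which were all lower. Of translational repressors and mRNA decay factors, which include Upf1 and Imp, 35 of 50 tested genes were lower in eggs and 2 higher. Of DNA replication and repair genes, which include nbs, 36 of 51 were lower and 5 higher. Chromatin genes, with E(z), had 23 of 51 lower and 13 higher, and chaperones, with Hsp110, had 20 of 33 lower and 4 higher. Central carbon enzymes, with Gfat2 and ACC, had 40 of 55 lower and 4 higher, and vesicle traffic genes, with Vha100-2, had 41 of 63 lower and 6 higher. All these stand beside the 51.0% of all genes that were lower and the 18.2% that were higher.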

How the data were processed

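Members, gene lists and named genes were chosen with earlier results of these data known. Named genes were the 8 members with the lowest mean efficiency change, members on functional lists, the extremes of each test, members absent from a gradient and those nearest a threshold; a few others were chosen after their values were seen. Per the submitters' processing notes, TopHat 1.3.2, Bowtie and HTSeq were used with dm3; their roles and order are not stated. The authors deposited RPKM per gene for inputs, RPKM per fraction normalized between fractions (per the labels' protocols with yeast mRNA added to gradient fractions, and with luciferase RNA in egg and puromycin gradients) for genes with at least 4 RPKM in heavy polysomes, and RPKM per transcript for the footprint series. The deposited fraction values, each fraction's part of a gene's sum, were recomputed from RPKM.

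Whole reads of the footprint series were inferred from RPKM times coding length less 47 bases, a trim chosen from the data; 99.2% to 99.5% of values under 1000 reads lay within 0.1 of a whole number, against 20% for uniform values. Depth of other libraries could not be recovered. limma 3.58.1 (R 4.3.3; moderated, trended, two-sided) was fitted to polysomal and RNP log2 odds of 5088 genes over 6 gradients in 4 groups, and to log2(RPKM + 1) of 4 inputs for 6622 genes with a mean of at least 1 RPKM, with Benjamini-Hochberg adjustment over all genes. The model was tested on simulated data. Efficiency was not tested. Of 5842 transcripts 5778 matched a gene record. Alternatives changed the pseudocount, filter, scaling, fractions counted as polysomal, replicate block and each replicate. Same-numbered replicates did not deviate together (correlation −0.03 in gradients and in inputs), so no block was used.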

Additional observations from a re-analysis of the deposited data

Results flagged for a closer look

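The change in polysomal log2 odds with puromycin differed between eggs and oocytes for 4 members in the interaction test of limma with Benjamini-Hochberg adjustment. The difference, eggs minus oocytes, was 1.19 for Hsp110, 1.06 for Ide, 1.04 for ACC and 1.01 for Upf1. It contains the untreated fall from oocytes to eggs with its sign turned, so it does not stand apart from that fall. With heavy polysomes counted alone none of the 4 passed and Ide read −0.01.

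The input library labelled egg puromycin, used in a single alternative, held 28736 RPKM summed over the follicle cell markers, against 74.1 and 59.2 RPKM in the untreated egg inputs. It also held 0.886 RPKM of ACC, against 25.96 and 22.7 RPKM in the untreated egg inputs.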

How the results depend on the processing

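The polysomal fall of the members in eggs held under every alternative in count (17 to 19 of 19), and for all 22 members when the puromycin gradients were left out and every gene listed in the other 4 was kept, an alternative chosen after seeing the data. The other comparisons depended on the settings. With fraction totals made equal, 11 members were higher in free RNP, puromycin called 0 lower and 16 higher in eggs, and 0 lower and 11 higher in oocytes. With gradients centred on their median, RNP gave 7 higher and 1 lower, puromycin gave 0 lower and 18 higher in eggs and 4 lower and 2 higher in oocytes, and the interaction 15 higher. A pseudocount of 5 gave 1 lower in RNP. With heavy polysomes alone puromycin called 12 lower and 0 higher in eggs, 4 lower in oocytes, and 2 lower and 0 higher in the interaction. With low polysomes included it called 0 lower and 14 higher in eggs, 3 lower in oocytes and 12 higher in the interaction. For inputs, 2 members were higher when centred, and 0 with no filter, with a pseudocount of 0.1 or with the puromycin inputs added. The replicate block, which does not pair these samples, gave 1 lower and 2 higher in inputs and moved no gradient count by more than 1.5 times.

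Leaving out each replicate in turn gave 13 to 18 members higher in RNP, 0 to 7 lower and 0 to 2 higher in inputs, 3 to 7 lower and 1 to 2 higher with puromycin in eggs, 6 to 13 lower in oocytes, and 0 to 2 lower and 0 to 7 higher in the interaction. Among members past the threshold as deposited, the sign of the puromycin effect in eggs changed for 5 of 6 with equal totals, 5 of 6 centred and 4 of 6 with low polysomes. In oocytes it changed for 9 of 10 with equal totals (Hsp110 0.28 and Upf1 0.089 among them) and 2 of 10 with low polysomes. In eggs the values with equal totals, centred and with low polysomes were 0.37, 0.30 and 0.014 for AMPdeam, 0.57, 0.73 and 0.080 for CtIP, 1.29, 1.34 and 0.61 for Gfat2, and 1.74, 1.35 and 0.69 for Upf1. NiPp1 read 0.10 with equal totals and 0.62 centred (limma adjusted p = 0.0335). Upf1 reversed in RNP (−0.056, centred) and Ide in the interaction (−0.012, heavy alone), where 9 of 19 members changed sign. The cause was not tested. Of 346 single-gene values under alternatives 286 kept direction and call, and 154 of these belonged to the polysomal comparison. For puromycin in eggs 39 kept both, 14 changed sign and 7 lost their call. In the interaction 27 kept both, 12 lost their call and 1 changed sign. The selection gave 33 mRNAs with a pseudocount of 0.5, of which 28 were among the 32, and 65 with each change centred on its median, of which 27 were. Footprint values of members under 20 reads are the least precise.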
